A study of Mus musculus with 21 samples.

Results

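The G1 cyclin, CDK inhibitor and MYC genes described here were 10 mouse genes chosen by name. They were the D cyclins Ccnd1, Ccnd2 and Ccnd3, the E cyclins Ccne1 and Ccne2, the CDK inhibitors Cdkn1b, Cdkn2a and Cdkn2b, and the MYC family genes Myc and Mycn. All 10 were among the 33861 genes of the deposited count table. RNA-seq counts came from 12 samples of cultured pluripotent cells and 9 single mouse epiblasts, the embryonic tissue that gives rise to the body, with total counts of 5827093 to 15916800 per sample. Formative stem cells (FS) came from a line labelled 5cdr1 (FS line 1, passages 10, 11 and 18) and a line labelled 5cdr2 (FS line 2, passages 12, 13 and 16), both in a medium labelled A3XR. Epiblast stem cells (EpiSCs) labelled E14 were grown in a medium labelled AF or in one labelled AFX, at passages 14, 15 and 16 in each, and 1000 cells were collected per cultured sample. Epiblasts came from 3 embryos each of embryonic day 5.0 (E5.0, embryos 1, 2 and 4), 5.5 (E5.5, embryos 1 to 3) and 6.0 (E6.0, embryos 1 to 3). The last group is called E6.0 in the sample titles and 6.5 days old in another field. The labels do not say what the media contain, passages of a line are not separate derivations, and FS and EpiSC samples differed in line and medium together. The p-values therefore measure the spread between these samples only.

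D cyclins bind CDK4 and CDK6, and E cyclins bind CDK2. These kinases phosphorylate the RB family, which releases E2F factors to switch on DNA replication genes. The INK4 proteins encoded by Cdkn2a and Cdkn2b bind CDK4 and CDK6, p27 encoded by Cdkn1b acts mainly on cyclin E complexes, and MYC and MYCN pair with MAX to drive growth genes. Pluripotent cells of the early embryo are known for fast division with a short G1 phase.

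The labelled cell type was checked on 8 epiblast markers (Pou5f1, Sox2, Nanog and others), all of which averaged at least 1 CPM, the count normalised to library size in each of the 7 groups. Their summed level was 1230 to 2891 CPM in cultured samples and 3900 to 7176 CPM in epiblasts, most of it from Dnmt3b (785 CPM on average in AF, 5190 CPM at E6.0). Not all markers had that order: Nanog averaged 51.3 CPM in AF but 4.87 CPM at E5.0 and 9.62 CPM at E5.5, and Fgf5 averaged 136 CPM in AF and at most 98.6 CPM at an epiblast stage. Genes of feeder fibroblasts, the support cells of some cultures, summed to 225 to 271 CPM in AF, against 19.6 to 51.2 CPM in FS and 32.0 to 56.1 CPM in AFX. In AF 8 of 9 of these genes averaged at least 1 CPM and none was at 0, but the collagen genes Col1a1 (92.6 CPM), Col3a1 (78.3 CPM) and Col1a2 (57.3 CPM) made up most of the sum. Thy1 was lower in AF (2.14 CPM) than in FS line 1 (3.79), FS line 2 (7.21) and AFX (10.7). Visceral endoderm genes, which mark the tissue around the epiblast, summed to 315 to 922 CPM at E5.0, 45.6 to 89.1 CPM at E5.5 and 28.6 to 36.6 CPM at E6.0. The AF library of passage 15 stood apart from the other AF libraries. It was the lowest of the 3 for Ccnd1, Ccne1, Ccne2, Myc and Mycn and the highest for Cdkn1b, Cdkn2a and Cdkn2b. Its summed levels of 19 E2F targets (2008 CPM) and 20 MYC targets (6478 CPM) were the lowest of the 21 samples.

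Promoter sequence was at hand for 6 of the 10 members, in 8 windows of 300 bases each (250 before to 50 after a start site, RefSeq, build GRCm38.p6). The stretches printed here hold no annotated exon base. Those of p19ARF, Cdkn2b and Mycn lie just upstream of the gene's first annotated exon, while that of p16INK4a lies inside the Cdkn2a gene, between its exons and just upstream of the p16INK4a start. They are shown because Cdkn2a and Cdkn2b, neighbours on chromosome 4, were the members highest in AF together, and because Mycn was the MYC gene with the higher level in all groups. Capitals mark letters of the E2F motif searched. The 2 Cdkn2a windows belong to the start of the p19ARF transcript and to that of the p16INK4a transcript.
Cdkn2a, p19ARF start, chr4:89294654-89294773, minus strand: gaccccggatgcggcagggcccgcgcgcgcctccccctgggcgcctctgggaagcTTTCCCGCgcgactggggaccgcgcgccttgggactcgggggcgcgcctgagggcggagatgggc
Cdkn2a, p16INK4a start, chr4:89282193-89282312, minus strand: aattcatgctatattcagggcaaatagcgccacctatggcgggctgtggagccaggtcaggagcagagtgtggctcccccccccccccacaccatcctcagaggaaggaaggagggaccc
Cdkn2b, chr4:89311040-89311159, minus strand: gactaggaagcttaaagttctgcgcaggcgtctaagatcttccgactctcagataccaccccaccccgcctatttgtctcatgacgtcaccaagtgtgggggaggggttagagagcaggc
Mycn, chr12:12941915-12942034, minus strand: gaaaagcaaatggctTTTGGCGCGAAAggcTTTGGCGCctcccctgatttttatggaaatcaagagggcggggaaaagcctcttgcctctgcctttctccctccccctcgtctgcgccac

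The E2F letters searched on both strands were TTTGGCGC, TTTCGCGC and TTTCCCGC. They occurred in 1 of the 2 Cdkn2a windows and 3 times in the Mycn window, where the first match overlaps the second. Of 32851 RefSeq promoters of the same length, 1.84% held such a match. The E-box CACGTG, bound by MYC with MAX, is in 7.15% of those promoters and was in no member window. The TCF/LEF letters CTTTGAT or CTTTGAA (8.65% of promoters) occurred in the Mycn window, and the SP/KLF letters GGGGCGGGG (11.4%) in those of Cdkn2b, Ccne1, Mycn and Ccnd3. The SMAD letters GTCTAGAC (0.213%) were found in none of the 8 windows. These matches describe the letters in the windows only.

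Between the cultured groups, FS cells had less Ccnd2, Cdkn2a, Cdkn2b and Myc RNA than AF cells, and less Ccnd2 but more Cdkn1b than AFX cells. AFX cells had less Cdkn2a and Cdkn2b than AF cells. With edgeR's quasi-likelihood test and a Benjamini-Hochberg adjusted p under 0.05 over all 16052 genes tested, 4 of 10 members passed in FS against AF, where 19.5% of all genes did and 10.6% were lower in FS as these 4 were. In FS against AFX 2 of 10 passed, beside 8.70% of all genes. In AFX against AF 2 of 10 passed, both lower, where 8.73% of all genes passed and 4.42% were lower. The median log2 difference of the members was -0.36 in FS against AF (0.02 over all genes), -0.14 in FS against AFX (0.00 over all genes) and -0.11 in AFX against AF (0.01 over all genes). Comparisons among FS, AF and AFX share samples.

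**Figure D1:**
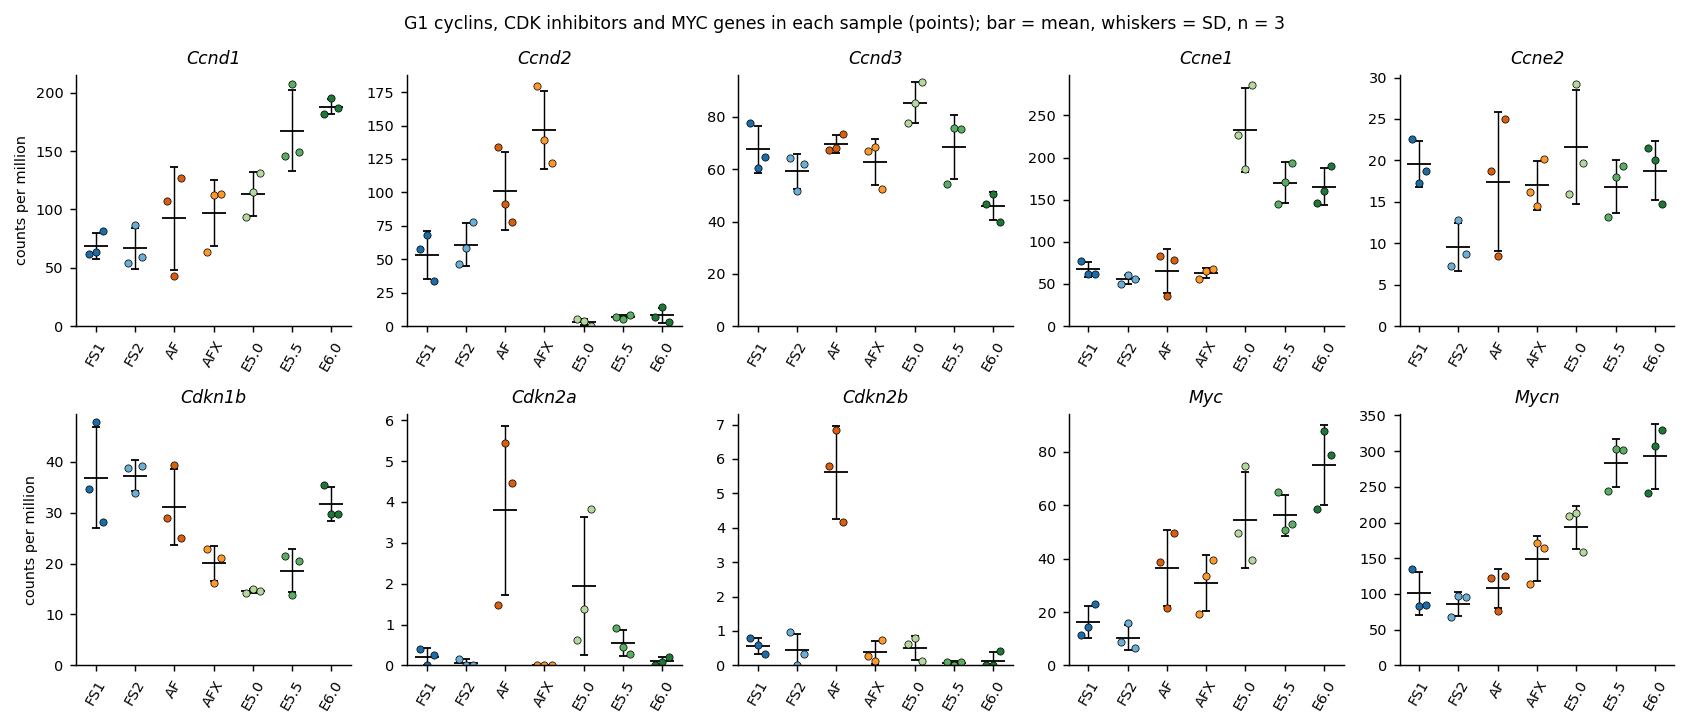
Level of each of the 10 genes (CPM, linear axes from 0) in the 21 samples, by group. Points are samples, bars are means and whiskers are SD over the 3 samples of a group. The lowest cultured sample had 33.4 CPM of Ccnd2 and the highest epiblast 14.5 CPM, and the highest cultured sample had 83.6 CPM of Ccne1 and the lowest epiblast 145 CPM.

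Epiblasts and cultured cells differed in most of these genes. Ccnd2, Cdkn1b and Cdkn2b were higher in culture, and Ccnd1, Ccne1, Myc and Mycn were lower, so that 7 of 10 members passed in the mean of FS, AF and AFX against the mean of E5.0, E5.5 and E6.0. That share is near the background, since 61.8% of 16614 genes passed in this comparison. For Cdkn2b, AF averaged 5.61 CPM, while FS (0.503 CPM) and AFX (0.380 CPM) averaged less than E5.0 (0.508 CPM) and more than E5.5 (0.0687 CPM) and E6.0 (0.142 CPM). Cdkn1b was lower in AFX than at E6.0, as given with each gene. In FS against E5.5, 6 of 10 members passed (43.8% of all genes), in AF against E6.0 8 of 10 (35.2%) and in AFX against E6.0 7 of 10 (32.8%). The median log2 difference of the members between culture and epiblast was -0.54, against 0.09 over all genes. Cultured samples were 1000 collected cells and epiblasts were whole single tissues, so origin, input and culture cannot be told apart.

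Within the epiblast, Ccnd1, Mycn and Cdkn1b rose and Ccnd3 and Ccne1 fell from E5.0 to E6.0. Cdkn2a and Cdkn2b did not reach the count minimum there, which left 8 members tested, though other settings tested Cdkn2a, as given with that gene. Of these, 5 of 8 passed in E6.0 against E5.0 (21.8% of 14228 genes), 2 of 8, both higher, in E5.5 against E5.0 (6.82%, with 3.07% higher) and 1 of 8, lower, in E6.0 against E5.5 (4.43%, with 2.54% lower). Summed visceral endoderm genes fell over the same stages, as given above, and their part in these differences was not tested. In samples of whole tissue or many cells, fewer cells of a type and less RNA per cell cannot be told apart.

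Ccnd2 (ENSMUSG00000000184, chr6:127125162-127152193, minus strand), a D cyclin gene, was the member that separated culture from embryo most. FS line 1 had 58.0, 68.1 and 33.4 CPM at passages 10, 11 and 18, and FS line 2 had 46.6, 58.4 and 77.9 CPM at passages 12, 13 and 16. AF had 134, 91.1 and 78.2 CPM and AFX 179, 139 and 122 CPM at passages 14, 15 and 16. The FS range lay below both EpiSC groups, with 77.9 CPM in the highest FS sample and 78.2 CPM in the lowest AF library, and AF and AFX overlapped. The 9 epiblasts had 4.97, 4.12 and 0.360 CPM at E5.0, 6.78, 5.16 and 8.39 CPM at E5.5 and 6.83, 14.5 and 3.30 CPM at E6.0. All were below each cultured sample. The log2 difference was -0.83 (SE 0.23, edgeR adjusted p = 0.0226) in FS against AF and -1.37 (SE 0.23, adjusted p = 0.00203) in FS against AFX. The call against AF was lost without AF passage 14 (-0.59, adjusted p = 0.142), without AF passage 15 (-0.90, adjusted p = 0.0539) and with no low-count filter (-0.84, adjusted p = 0.0675). Against the epiblast, Ccnd2 was higher by 3.06 log2 units (SE 0.48, adjusted p = 8.25e-05) in FS than at E5.5. It was higher by 3.60 (SE 0.51, adjusted p = 5.53e-05) in AF and by 4.14 (SE 0.52, adjusted p = 2.15e-05) in AFX than at E6.0. Among epiblast stages it passed in no comparison, with a log2 difference of 1.38 (SE 0.71, adjusted p = 0.191) in E6.0 against E5.0, although the test without a count filter put that difference past the threshold (1.41, adjusted p = 0.0211).

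Ccnd1 (ENSMUSG00000070348, chr7:144929931-144939925, minus strand) averaged more RNA in epiblasts than in culture, unlike Ccnd2, and had the most at E5.5 and E6.0. E5.0 embryos had 93.9, 115 and 131 CPM, E5.5 embryos 146, 207 and 149 CPM, and E6.0 embryos 182, 195 and 187 CPM. FS samples ranged from 54.1 to 86.7 CPM with a median of 62.5 CPM. AF had 108, 42.6 and 127 CPM and AFX 63.9, 112 and 113 CPM. E5.0 lay below E5.5, E5.5 overlapped E6.0, and the cultured groups overlapped each other. AF and AFX also overlapped E5.0, with 2 libraries of each above E5.0 embryo 1, while all cultured samples lay below E5.5 and E6.0. Ccnd1 rose by 0.55 log2 units (SE 0.15, edgeR adjusted p = 0.0388) from E5.0 to E5.5 and by 0.72 (SE 0.15, adjusted p = 0.00352) from E5.0 to E6.0. The first call was lost without any 1 of 4 of the 6 embryos, with adjusted p from 0.0517 (without E5.5 embryo 1) to 0.175 (without E5.5 embryo 2), the others being E5.0 embryos 1 (0.0950) and 2 (0.0547), and with only these stages in the fit (0.0934). The difference was -1.31 (SE 0.25, adjusted p = 0.000368) in FS against E5.5, -1.03 (SE 0.30, adjusted p = 0.0123) in AF against E6.0 and -0.96 (SE 0.30, adjusted p = 0.0192) in AFX against E6.0. The last was lost without AFX passage 14 (-0.73, adjusted p = 0.0953) and without E6.0 embryo 2 (-0.93, adjusted p = 0.0527). In FS against AF it was -0.45 (SE 0.29, adjusted p = 0.320), and -0.80 (adjusted p = 0.0226) without the AF library of passage 15. Ccnd1 shares 1100 exon bases with LTO1 on the other strand, and since no source used here states whether counting used strand, reads of the pair cannot be told apart. LTO1 averaged 5.68 to 10.2 CPM over the groups.

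Ccnd3 (ENSMUSG00000034165, chr17:47505051-47599691, plus strand) moved against Ccnd1 in the embryo. It had 77.6, 85.3 and 93.5 CPM at E5.0, 54.3, 75.8 and 75.3 CPM at E5.5 and 46.9, 50.5 and 39.9 CPM at E6.0. The 3 stages did not overlap. The fall from E5.0 to E6.0 was -0.92 log2 units (SE 0.16, edgeR adjusted p = 0.000954). The step from E5.5 to E6.0 was -0.58 (SE 0.16, adjusted p = 0.0499), a call lost without any 1 of 5 of the 6 embryos (adjusted p from 0.114 without E6.0 embryo 2 to 0.213 without E6.0 embryo 3). The other such embryos were E5.5 embryos 2 and 3 and E6.0 embryo 1, and the call was also lost with DESeq2's size factors (adjusted p = 0.0556). Cultured groups lay close together, with means and SDs of 63.4 ± 8.39 CPM in FS (n = 6), 69.6 ± 3.44 CPM in AF (n = 3) and 62.7 ± 8.85 CPM in AFX (n = 3), and Ccnd3 passed in no comparison among them. AF exceeded E6.0 by 0.61 (SE 0.15, adjusted p = 0.00382) and AFX exceeded E6.0 by 0.45 (SE 0.15, adjusted p = 0.0260). The AFX call was lost without AFX passage 14 or 15 or without E6.0 embryo 1 or 3 (adjusted p from 0.0540 to 0.130). Ccnd3 shares 361 exon bases with Bysl on the other strand, and Bysl, at 39.7 to 89.1 CPM, was about as high.

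Per exon length the make-up of the D cyclins differed between culture and embryo, as the plot of D cyclin shares shows. Ccnd2 made up 21.9% ± 5.81 (SD, n = 6) of the summed D cyclin level in FS, 29.2% ± 9.06 (n = 3) in AF and 36.4% ± 9.46 (n = 3) in AFX. In epiblasts it was 1.06% ± 0.870 at E5.0, 1.70% ± 0.594 at E5.5 and 1.85% ± 1.20 at E6.0 (n = 3 each). The share of Ccnd1 was 70.3% ± 2.11 at E5.0, 80.5% ± 3.07 at E5.5 and 86.8% ± 2.02 at E6.0, and that of Ccnd3 was 28.7% ± 1.32 at E5.0 and 11.3% ± 0.972 at E6.0. Which D cyclin led depended on the length used. With all merged exons Ccnd1 had the largest mean share in each group (51.8% ± 7.15 in FS), although Ccnd2 led in AF passage 15 (36.6%, Ccnd1 34.2%) and AFX passage 14 (47.3%, Ccnd1 33.7%). By contrast, with the longest principal transcript, a length chosen after seeing the data, Ccnd3 had the largest mean share in FS (52.5% ± 5.80), AF (45.8% ± 8.62), AFX (37.6% ± 3.92) and E5.0 (56.9% ± 1.53). In AFX passage 16 Ccnd1 led with that length too (40.7%, Ccnd3 33.4%). The highest Ccnd2 share of any epiblast, in E6.0 embryo 2, was 3.15% with merged exons and 2.91% with the principal transcript. These shares carry no test.

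**Figure D2:**
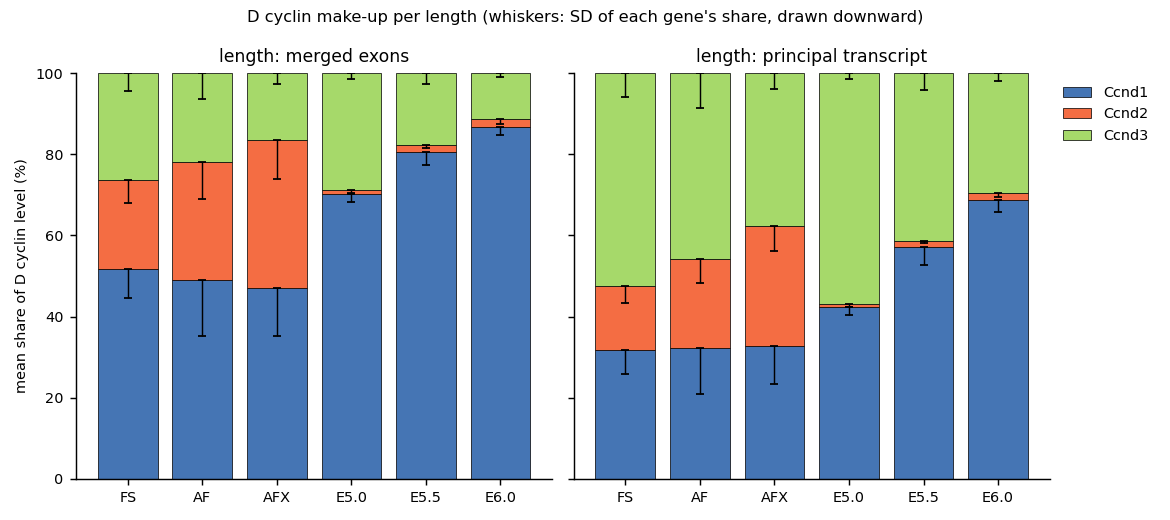
Mean share of Ccnd1, Ccnd2 and Ccnd3 in the summed D cyclin level per length (percent, stacked to 100) in each group, with merged exons on the left and the longest principal transcript on the right. Whiskers drawn downward are the SD of each share over samples (n = 6 for FS, n = 3 otherwise). Ccnd2 is 21.9% in FS and 1.06% at E5.0 on the left.

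Ccne1 (ENSMUSG00000002068, chr7:38097984-38107534, minus strand), the E cyclin gene with the higher level, was higher in each epiblast than in each cultured sample. E5.0 embryos had 226, 186 and 286 CPM, E5.5 embryos 145, 171 and 194 CPM, and E6.0 embryos 147, 160.0 and 190.1 CPM. FS samples ranged from 49.7 to 77.4 CPM with a median of 61.3 CPM, AF had 83.6, 35.5 and 78.0 CPM and AFX 55.7, 65.4 and 67.5 CPM. The stages overlapped with their neighbours, and so did the cultured groups. The log2 difference was -1.47 (SE 0.19, edgeR adjusted p = 3.20e-06) in FS against E5.5, -1.33 (SE 0.23, adjusted p = 0.000159) in AF against E6.0 and -1.40 (SE 0.23, adjusted p = 0.000123) in AFX against E6.0. Ccne1 fell from E5.0 to E6.0 by 0.51 log2 units (SE 0.15, adjusted p = 0.0304). That call was lost without E5.0 embryo 1 (adjusted p = 0.0643), E5.0 embryo 4 (0.146), E6.0 embryo 1 (0.138) or E6.0 embryo 2 (0.114). Among cultured groups Ccne1 passed in no comparison, with log2 differences from -0.11 to -0.04 among FS, AF and AFX.

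Ccne2 (ENSMUSG00000028212, chr4:11191351-11204779, plus strand), the other E cyclin gene, was low and passed in none of the 11 comparisons. Group means ran from 9.55 ± 2.87 CPM in FS line 2 to 21.6 ± 6.88 CPM at E5.0 (SD, n = 3 each). FS line 1 had 22.6, 17.2 and 18.7 CPM and FS line 2 had 7.23, 12.8 and 8.64 CPM, so the 2 lines did not overlap. The log2 difference between the lines was -1.06 (SE 0.32, edgeR adjusted p = 0.0927). No member passed in that comparison of FS lines, where 3.85% of 16052 genes did. Ccne2 was the 1 member with an unadjusted p under 0.05 there in edgeR's quasi-likelihood test, beside 17.4% of all genes. DESeq2's Wald test called Ccne2 alone (adjusted p = 0.0298), as did edgeR on the FS samples only (adjusted p = 0.0106), and edgeR with no count filter called Ccne2 (adjusted p = 0.000310) and Myc (-0.68, adjusted p = 0.0226). Per exon length Ccne2 made up 14.8% ± 3.90 of the E cyclin level in FS (n = 6) and 6.97% ± 0.469 at E5.5 (n = 3), and Ccne1 led in each group with either length. Ccne2 shares 609 exon bases with Ints8 on the other strand, which was higher at 53.2 to 93.0 CPM, so the Ccne2 values are uncertain.

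Cdkn1b (ENSMUSG00000003031, chr6:134920401-134925513, plus strand) encodes p27, an inhibitor of CDK2 complexes, and had its highest mean in FS, where it overlapped AF and E6.0. FS line 1 had 34.6, 47.7 and 28.3 CPM and FS line 2 had 38.8, 33.9 and 39.2 CPM. AF had 29.0, 39.4 and 25.0 CPM and AFX 22.9, 16.1 and 21.03 CPM. AFX lay below both FS and AF. The difference was 0.88 log2 units (SE 0.19, edgeR adjusted p = 0.00862) in FS against AFX, a call lost without AFX passage 15 (0.75, adjusted p = 0.0579). In FS against AF it was 0.24 (SE 0.18, adjusted p = 0.393) and in AFX against AF -0.63 (SE 0.21, adjusted p = 0.0795), which passed by DESeq2's Wald test (-0.65, adjusted p = 0.0447).

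In the embryo Cdkn1b had 14.3, 14.9 and 14.6 CPM at E5.0, 21.5, 13.8 and 20.5 CPM at E5.5 and 35.5, 29.7 and 29.7 CPM at E6.0. E6.0 lay above the younger stages, which overlapped. The rise from E5.0 to E6.0 was 1.10 log2 units (SE 0.22, edgeR adjusted p = 0.00273), and the step from E5.5 to E6.0 was 0.76 (SE 0.21, adjusted p = 0.0610), which passed by DESeq2's Wald test (0.77, adjusted p = 0.0212) and with only these stages in the fit (0.76, adjusted p = 0.0297). Cdkn1b was higher in FS than at E5.5 by 0.99 (SE 0.19, adjusted p = 0.000176). AFX was below E6.0 by -0.65 (SE 0.21, adjusted p = 0.0186), a call lost without AFX passage 15 (-0.52, adjusted p = 0.0976) or E6.0 embryo 1 (-0.56, adjusted p = 0.0735), and AF differed from E6.0 by -0.02 (SE 0.20, adjusted p = 0.952).

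**Figure D3:**
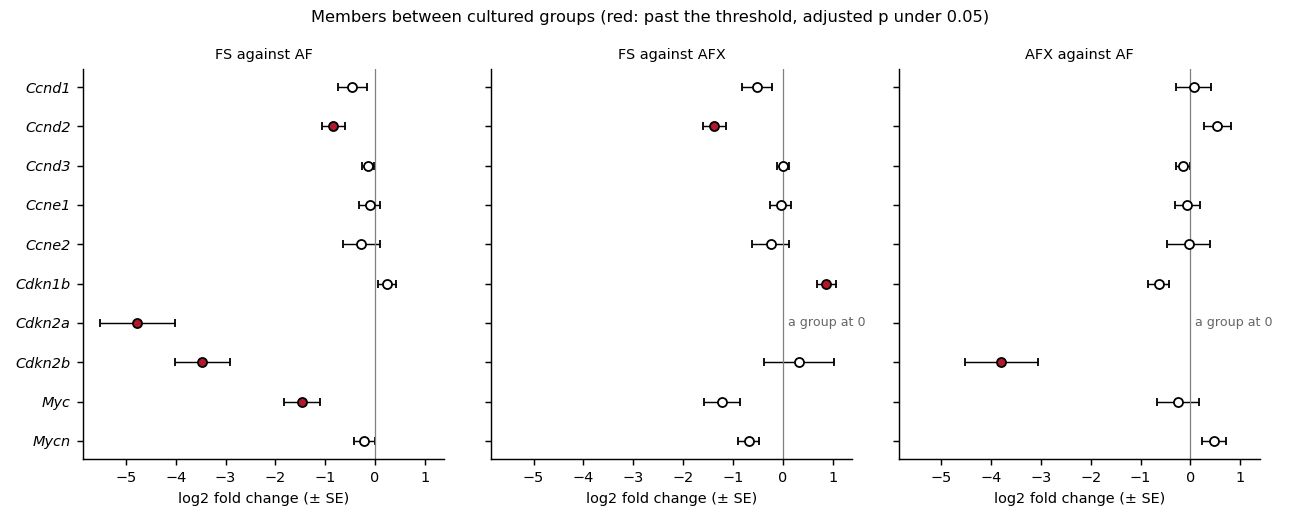
Log2 fold change (points, linear axis) with its SE (whiskers) of the 10 genes in 3 comparisons between cultured groups, red where the adjusted p was under 0.05. Ccnd2, Cdkn2a, Cdkn2b and Myc are red and left of 0 in FS against AF, where the Cdkn2b value is -3.47. No fitted value is drawn for Cdkn2a where AFX is at 0.

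Cdkn2a and Cdkn2b, which encode INK4 inhibitors of CDK4 and CDK6, were near the limit of detection in all groups but AF and, for Cdkn2a, E5.0. Cdkn2a (ENSMUSG00000044303, chr4:89274471-89294653, minus strand) had 12, 62 and 48 counts in AF at passages 14, 15 and 16, or 1.48, 5.45 and 4.45 CPM. The 3 AFX libraries had 0 counts, and the FS libraries had 4, 0 and 3 counts in line 1 and 2, 0 and 0 in line 2. All AF libraries were above all FS and AFX libraries. A level of 3 counts, taken as the limit that a count of 0 allows, was on average 0.275 CPM in AFX, so Cdkn2a was at least 13.8-fold higher in AF than in AFX. Pooled over libraries, the ratio of AF (122 counts) to FS (9 counts) was 31.5 (95% exact interval 16.1 to 70.5, counting error only), and 48.6 without FS line 1 passage 10. The fit gave -4.77 log2 units (SE 0.76, edgeR adjusted p = 0.000828) for FS against AF and an adjusted p of 0.00371 for AFX against AF. Counts are per gene, so the p16INK4a and p19ARF transcripts of Cdkn2a cannot be told apart.

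Cdkn2b (ENSMUSG00000073802, chr4:89306299-89311039, minus strand) had the same order in culture. AF had 47, 78 and 45 counts (5.80, 6.86 and 4.17 CPM), AFX had 4, 1 and 9, FS line 1 had 8, 5 and 4 and FS line 2 had 12, 0 and 6. The lowest AF library was above the highest FS library (0.964 CPM) and the highest AFX library (0.748 CPM). The difference was -3.47 log2 units (SE 0.56, edgeR adjusted p = 0.000547) in FS against AF and -3.80 (SE 0.73, adjusted p = 0.00603) in AFX against AF. The pooled ratio of AF to FS was 11.3 (7.81 to 16.7) and of AF to AFX 14.02 (8.13 to 26.2). AFX passage 16 held 9 of the 14 AFX counts, and without it the latter ratio was 25.7. Both genes passed in both comparisons without the AF library of passage 15 (largest adjusted p 0.0166, for Cdkn2b in AFX against AF). Feeder fibroblast genes were also higher in AF, with 271, 260.1 and 225 CPM summed at passages 14, 15 and 16. Summed visceral endoderm genes (72.9 to 109.9 CPM in AF, at most 15.5 in FS and 34.2 in AFX) and trophoblast genes (21.2 to 37.5 CPM in AF, at most 6.02 in FS and 8.81 in AFX) were higher there too. The endoderm sum in AF came mostly from Sox17 (31.1 CPM), Gata6 (17.96), Dab2 (16.4), Foxa1 (12.2) and Gata4 (10.1), while Afp and Apoa4 were at 0 and Ttr, Amn, Cubn and Apoa1 were at most at 0.969 CPM on average. Of the 8 trophoblast genes, Elf5 and Esx1 were at 0 in AF. The part of the cells these genes mark in the differences of AF from FS and AFX, those of Ccnd2 and Myc included, was not tested.

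In the embryo, Cdkn2a had 5, 7 and 32 counts at E5.0, 8, 4 and 3 at E5.5 and 0, 1 and 2 at E6.0. The CPM values were 0.621, 1.37 and 3.84 at E5.0 and at most 0.904 at E5.5 and 0.213 at E6.0, so E5.0 overlapped E5.5 and lay above E6.0. The pooled ratio of E5.0 (44 counts) to E6.0 (3 counts) was 19.5 (6.25 to 98.1), and E5.0 embryo 4 gave 32 of the 44 counts. The ratio was 8.69 without that embryo and 39.2 without E6.0 embryo 3. Under 6 other settings Cdkn2a was tested in E6.0 against E5.0, and 3 of 6 called it lower: DESeq2's Wald test (-4.26 log2 units, adjusted p = 0.0107), edgeR with no count filter (-4.05, adjusted p = 0.0301) and edgeR without E5.0 embryo 1 (-4.49, adjusted p = 0.0189). Without any 1 E6.0 embryo the adjusted p was 0.0624 to 0.120. E5.0 embryo 4 had the lowest visceral endoderm sum of the 3, at 315 CPM, beside 743 and 922 CPM. Cdkn2b had 5, 4 and 1 counts at E5.0, 1, 0 and 1 at E5.5 and 0, 0 and 4 at E6.0, which is at or near the limit of detection. Pooled, Cdkn2b in FS (35 counts) was 7.04 times (1.81 to 60.4) its level at E5.5 (2 counts) and 3.55 times (1.27 to 13.8) its level at E6.0 (4 counts), the latter 2.12 times without E6.0 embryo 2. The ranges overlapped, since 1 FS library was at 0, and the fit for FS against E5.5 gave 2.64 log2 units (SE 1.13, edgeR adjusted p = 0.0617), which passed without FS line 2 passage 13 (2.88, adjusted p = 0.0292). Cdkn2a differed by -1.94 (SE 0.93, edgeR adjusted p = 0.0960) in FS against E5.5 and passed with FS line 2 alone (-3.11, adjusted p = 0.0456) and without FS line 1 passage 10 (-2.53, adjusted p = 0.0455). The pooled ratio of AF to E6.0 was 38.4 (12.8 to 189) for Cdkn2a and 40.1 (15.4 to 149) for Cdkn2b. All 4 Cdkn2b counts at E6.0 were in embryo 3, and the other 2 E6.0 libraries were at 0. The Cdkn2b ratio was 23.9 without E6.0 embryo 2, and the Cdkn2a ratio was 77.3 without E6.0 embryo 3, which held 2 of its 3 counts. In the fit both were higher in AF than at E6.0 (adjusted p = 0.00177 for Cdkn2a and 0.000642 for Cdkn2b by edgeR).

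**Figure D4:**
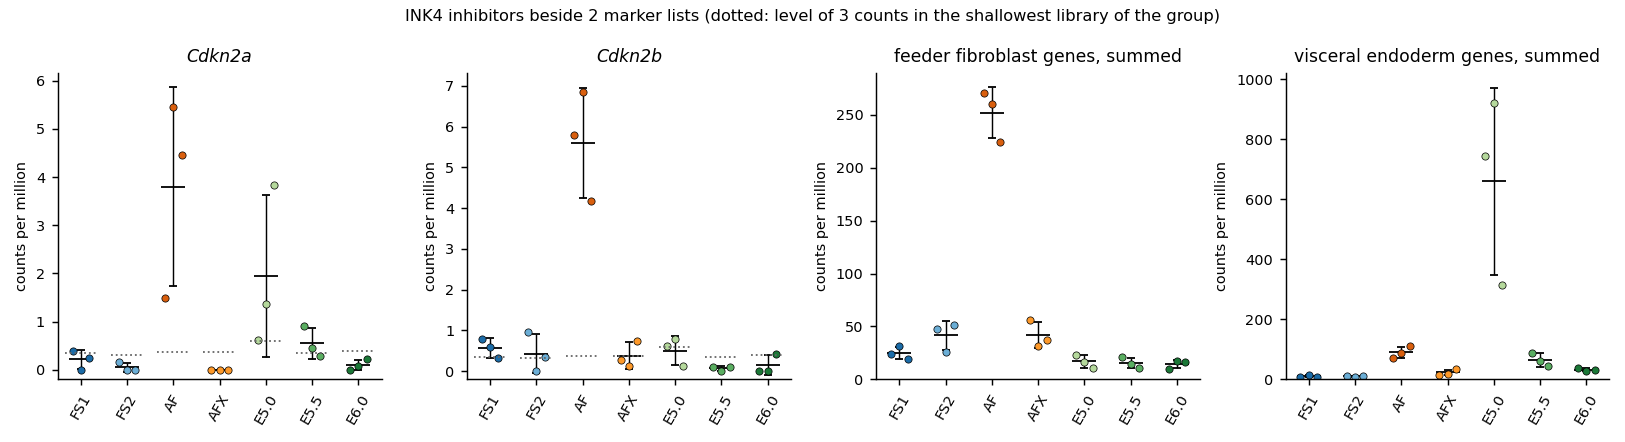
Level of Cdkn2a and Cdkn2b (CPM, linear axes) in the 21 samples beside the summed level of 9 feeder fibroblast genes and 12 visceral endoderm genes. Points are samples, bars means, whiskers SD (n = 3), and dotted lines the level of 3 counts in the shallowest library of a group. AF holds the highest Cdkn2b values (4.17 to 6.86 CPM) and the highest feeder sums (225 to 271 CPM), and E5.0 the highest visceral endoderm sums (315 to 922 CPM).

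Other CDK inhibitor genes followed their own orders. Cdkn1c, which encodes p57, had 109, 73.8 and 107 CPM in AF, against 36.2 to 59.2 CPM in FS and 34.5 to 45.7 CPM in AFX, and AF lay above both. Its difference was -1.06 log2 units (SE 0.17, edgeR adjusted p = 0.000480) in FS against AF and -1.26 (SE 0.20, adjusted p = 0.00201) in AFX against AF. From E5.0 to E6.0 Cdkn1c fell by 1.97 (SE 0.28, adjusted p = 0.000254), from 63.3 ± 23.5 to 16.3 ± 2.18 CPM (SD, n = 3). AF and E5.0, which had the highest means of Cdkn1c, also had the highest feeder sums and the highest visceral endoderm sums respectively, and the part of those cells was not tested. Within E5.0, embryos 1, 2 and 4 had 38.2, 66.9 and 84.9 CPM of Cdkn1c beside visceral endoderm sums of 743, 922 and 315 CPM. Cdkn1a, which encodes p21, was at 27.2 ± 4.18 CPM in FS (n = 6), 25.2 ± 7.29 in AF and 30.2 ± 3.14 in AFX (n = 3 each) but at 4.06 ± 1.86 at E5.5. It was higher in FS than at E5.5 by 2.73 (SE 0.36, adjusted p = 3.05e-06). Cdkn2d, a further INK4 gene, was at 1.91 to 5.89 CPM and Cdkn2c at most at 1.41 CPM. Cdkn2c did not reach the count minimum, and the smallest edgeR adjusted p of Cdkn2d over the 11 comparisons was 0.0569, in AF against E6.0 (0.95, SE 0.38), a difference that passed with DESeq2's size factors (0.98, adjusted p = 0.0496).

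The partner kinases differed among themselves. Cdk6 was at 165 ± 30.4 CPM in AF, 89.7 ± 30.6 CPM in FS and 96.6 ± 28.3 CPM in AFX (SD), and it was lower in FS than in AF by -0.89 log2 units (SE 0.26, edgeR adjusted p = 0.0287). In epiblasts Cdk6 averaged 23.8 to 39.7 CPM, and culture exceeded epiblast by 1.89 (SE 0.25, adjusted p = 5.82e-06), whereas Cdk4 was lower in culture by -0.57 (SE 0.07, adjusted p = 5.23e-07). Cdk2 was also lower in culture, by -0.48 (SE 0.08, adjusted p = 1.95e-05). Of the 7 genes for CDK partners and the CDK activating kinase, 1 was higher and 4 lower in culture than in epiblast, where 33.9% of all genes were higher and 27.9% lower, with a median of -0.25 against 0.09 over all genes.

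Mycn (ENSMUSG00000037169, chr12:12936093-12941914, minus strand) was the MYC gene with the higher level per length in each group, making up 85.1% ± 6.22 (SD, n = 6) of the pair in FS, 71.5% ± 3.55 in AF and 76.3% ± 1.79 at E6.0 (n = 3 each). FS line 1 had 135, 83.1 and 84.0 CPM and FS line 2 had 67.1, 97.0 and 95.2 CPM. AF had 123, 75.9 and 125 CPM and AFX 113, 171 and 164 CPM. E5.0 embryos had 209, 213 and 159 CPM, E5.5 embryos 244, 303 and 302 CPM and E6.0 embryos 242, 308 and 330 CPM. E5.5 and E6.0 overlapped, both lay above E5.0, and the cultured groups lay below E5.5 and E6.0. AFX overlapped E5.0. Mycn rose by 0.53 log2 units (SE 0.14, edgeR adjusted p = 0.0366) from E5.0 to E5.5 and by 0.58 (SE 0.14, adjusted p = 0.00970) from E5.0 to E6.0. The first call was lost without E5.0 embryo 4 (adjusted p = 0.0959), E5.5 embryo 2 (0.137) or E5.5 embryo 3 (0.109) and with only these stages in the fit (0.0568). The difference was -1.60 (SE 0.18, adjusted p = 7.79e-07) in FS against E5.5, -1.44 (SE 0.22, adjusted p = 5.37e-05) in AF against E6.0 and -0.97 (SE 0.22, adjusted p = 0.00224) in AFX against E6.0. In FS against AFX it was -0.68 (SE 0.21, adjusted p = 0.0581). It passed under 6 of 16 other settings. They were DESeq2's Wald test (adjusted p = 0.0243), FS line 2 alone (-0.81, adjusted p = 0.0352), FS lines as separate groups, only the groups compared, and the fits without AFX passage 14 (-0.84, adjusted p = 0.0342) and without FS line 1 passage 10 (-0.82, adjusted p = 0.0124).

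Myc (ENSMUSG00000022346, chr15:61985391-61990374, plus strand) was lowest in FS. FS line 1 had 11.3, 14.3 and 23.0 CPM and FS line 2 had 8.84, 15.7 and 6.60 CPM. AF had 38.6, 21.4 and 49.5 CPM and AFX 19.1, 33.5 and 39.6 CPM. FS line 1 overlapped AF and AFX at 1 sample, and FS line 2 lay below both. The difference was -1.47 log2 units (SE 0.36, edgeR adjusted p = 0.0129) in FS against AF. It was lost without AF passage 16 (-1.19, adjusted p = 0.0747) and with FS line 1 alone (-1.17, adjusted p = 0.0535), and was -1.74 (adjusted p = 0.0104) without AF passage 15. In FS against AFX it was -1.22 (SE 0.36, adjusted p = 0.0590), which passed under 5 of 16 other settings. They were FS line 2 alone (-1.61, adjusted p = 0.0216), FS lines as separate groups, DESeq2's Wald test (adjusted p = 0.00888), and the fits without AFX passage 14 (-1.46, adjusted p = 0.0430) and without FS line 1 passage 18 (-1.46, adjusted p = 0.0175).

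Epiblasts had 49.7, 74.6 and 39.6 CPM of Myc at E5.0, 65.2, 50.8 and 52.9 CPM at E5.5 and 58.7, 87.8 and 79.0 CPM at E6.0, with overlap between the stages. Myc passed in no comparison between stages, with 0.45 log2 units (SE 0.22, edgeR adjusted p = 0.165) in E6.0 against E5.0. Leaving out E5.0 embryo 2 gave 0.75 (adjusted p = 0.0128), and no count filter gave 0.48 (adjusted p = 0.0262). All 6 FS samples lay below all epiblasts, with -2.09 (SE 0.32, adjusted p = 5.31e-05) in FS against E5.5. AF was below E6.0 by -1.04 (SE 0.38, adjusted p = 0.0416) and AFX by -1.29 (SE 0.39, adjusted p = 0.0156). The AF call was lost without AF passage 14 (adjusted p = 0.0805) or 15 (0.187) or E6.0 embryo 2 (0.122) or 3 (0.0964) and with no low-count filter (0.1001), and the AFX call without AFX passage 14 (0.0790) or E6.0 embryo 2 (0.0564).

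**Figure D5:**
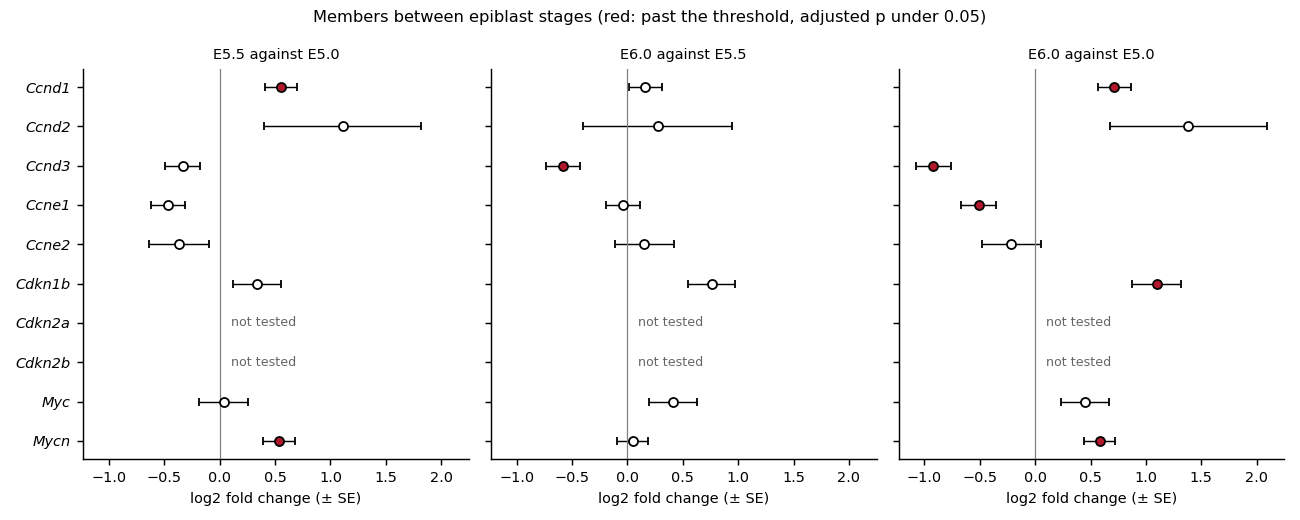
Log2 fold change (points, linear axis) with its SE (whiskers) of the 10 genes between epiblast stages, red where the adjusted p was under 0.05. In E6.0 against E5.0, Ccnd1 (0.72), Cdkn1b (1.10) and Mycn (0.58) are red to the right of 0 and Ccnd3 (-0.92) and Ccne1 (-0.51) to the left. Cdkn2a and Cdkn2b did not reach the count minimum.

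Downstream genes were lower in culture than in the embryo. Of 19 E2F targets of the G1/S transition, 19 were lower in culture than in epiblast and none higher, where 27.9% of all genes were lower and 33.9% higher, with a median of -0.82 log2 units against 0.09 over all genes. Mcm2, a subunit of the replicative helicase, differed by -1.04 (SE 0.06, edgeR adjusted p = 4.50e-12) and Ung, a uracil DNA glycosylase, by -1.63 (SE 0.09, adjusted p = 6.66e-13). Among the cultured groups 2 of 19 were higher and 17 did not pass in FS against AF (median 0.17), where 19.5% of all genes passed. In FS against AFX 0 of 19 passed in edgeR's test, beside 8.70% of all genes, and 0 did with DESeq2's size factors (1 of 19 had an unadjusted p under 0.05, beside 22.6% of all genes). In AFX against AF 2 of 19 were higher (Dtl and Mcm3), beside 8.73%, and 1 with DESeq2's size factors. Of the 19, 9 had an unadjusted edgeR p under 0.05 there, beside 21.8% of all genes, with a median of 0.26 against 0.01 over all genes. From E5.0 to E6.0 7 of 19 fell and none rose, where 11.6% of all genes fell, with Cdc6, a replication licensing factor, at -0.75 (SE 0.12, adjusted p = 0.000625).

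Listed MYC target genes showed the same split. Of 20, 19 were lower in culture, where 27.9% of all genes were, and 1 (Cad) did not pass, with a median of -0.64 against 0.09 over all genes. Odc1, the first enzyme of polyamine synthesis, differed by -0.88 (SE 0.07, edgeR adjusted p = 2.15e-10) and Gnl3, a nucleolar protein, by -0.74 (SE 0.07, adjusted p = 6.39e-09). Between FS and AF, where Myc passed, 1 target was higher (Wdr43), 1 lower (Srm) and 18 did not pass, a share below the 19.5% of all genes that passed. Of 11 MYC partners and antagonists, 2 were higher and 6 lower in culture, where 33.9% of all genes were higher and 27.9% lower, with a median of -0.42 against 0.09 over all genes. Max, the partner of MYC and MYCN, was at 33.0 CPM in FS and 51.8 CPM at E5.5 and differed between them by -0.65 (SE 0.14, adjusted p = 0.000592). Mycl, a further MYC family gene, was lower in FS than in AF by -0.89 (SE 0.21, adjusted p = 0.00816).

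Genes of the RB family, E2F and DP factors moved in both directions. Of 13, 4 were higher in culture than in epiblast (Rb1, Rbl1, E2f5 and E2f6) and 7 lower, where 33.9% of all genes were higher and 27.9% lower, and the median was -0.40 against 0.09 over all genes. They included Rb1, the retinoblastoma gene, at 1.79 (SE 0.16, edgeR adjusted p = 3.93e-09) and Tfdp2, an E2F partner, at -0.81 (SE 0.08, adjusted p = 5.56e-09). In FS against AF 2 of 13 were higher and 3 lower, where 19.5% of all genes passed. Rbl1, which encodes p107, was higher in FS by 0.63 (SE 0.11, adjusted p = 0.00121).

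The genes nearest in pattern to each member were found by Pearson's r of log2 CPM over the 21 samples among 16614 genes, as a description, since all samples share the culture and embryo split and the library scaling. The nearest were Rasa3 (r = 0.97) for Ccnd2, Pum3 (0.96) for Ccnd1, Nup153 (0.97) for Ccne1, Utp15 (0.94) for Mycn and Gm6210 (0.94) for Myc. They were Specc1 (0.88) for Cdkn2b, Tom1l1 (0.88) for Cdkn1b, Myo7a (0.85) for Ccnd3 and Lsm2 (0.76) for Ccne2. Among the members themselves, Ccnd1 and Mycn had r = 0.89, Myc and Mycn 0.83, and Ccnd2 and Ccne1 -0.90.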

How the data were processed

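Counts of 21 samples were analysed as deposited: the authors gave raw counts per gene, whole numbers with 5827093 to 15916800 counts per sample. The submitters' processing notes name Trim Galore, TopHat2 2.1.0, featureCounts 1.5.0 and build mm10; the annotation and the use of strand are not given in the sources used here. Of 33861 gene identifiers, 33683 matched GENCODE M21 (GRCm38), which gave exon lengths, coordinates and overlapping genes.

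Genes were filtered with filterByExpr, scaled with the trimmed mean of M values and tested with edgeR 4.0.16 (robust quasi-likelihood F test, two-sided, Benjamini-Hochberg over all genes tested, threshold 0.05). Cultured comparisons used the 12 cultured samples, stage comparisons the 9 epiblasts, and mixed ones all 21, with both FS lines in 1 group except in the comparison of lines. Levels are CPM scaled by the same method over all 21 samples, while each fit was scaled on its own samples. Alternatives were DESeq2 1.42.0 (Wald test, or its size factors), no count filter, only the groups compared, FS lines apart or alone, replicate blocks, and leaving out each sample. The procedure was also run on simulated counts, with the same spread for all genes and known changes in well-counted genes only. That run does not cover low counts such as those of Cdkn2a and Cdkn2b.

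All 10 members were named in each comparison. Of each pathway list, up to 2 genes per comparison with the smallest adjusted p were named, direct partners of members whatever their result, and the genes of highest Pearson's r for members of at least 5 CPM in some group. Pathway genes named beyond this, where a count was 5 or fewer (as Rbl1, E2f5, E2f6, Fbxo4, Fbxw7 and Mki67), were chosen after their values were seen. The members and lists were chosen with earlier results of these data known. Intervals and limits for low counts cover counting error only.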

Additional observations from a re-analysis of the deposited data

How the results depend on the processing

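Of the members' log2 differences recomputed under other settings, 489 kept their direction and their side of the threshold, 18 moved past the threshold, 9 no longer passed it and 16 changed sign. When 1 sample was left out, 775 kept both, 9 moved past the threshold, 34 no longer passed it and 46 changed sign. No called difference changed sign. Cdkn2a and Cdkn2b were called lower than in AF, both in FS and in AFX, under each alternative run. The cause of the changes listed here was not tested. By DESeq2's Wald test, with FS line 2 alone and with FS lines as separate groups, 4 members were called in FS against AFX (2 in the reported fit). All genes called were 1983 of 18925, 1930 of 15759 and 2068 of 16052 in that order, against 1397 of 16052 in the reported fit. Between FS lines, 1 member and 1045 genes were called by the Wald test, 2 and 1298 with no low-count filter and 1 and 1045 with only the groups compared (0 and 618 reported). In E5.5 against E5.0 (2 and 971 reported), the Wald test called 1564 genes, no filter 1659, and only the groups compared 0 members and 453 genes. In E6.0 against E5.5 (1 and 631 reported), size factors called 0 members, the Wald test 2 members and 1031 genes, no filter 1107 genes, and only the groups compared 2 members and 1445 genes. With no filter 8 of 10 members and 3596 of 26648 genes were called in E6.0 against E5.0 (5 of 8 and 3100 of 14228 reported).

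Whether passage numbers and embryo numbers pair the samples could not be settled with so few samples per group. Same-numbered deviations correlated at -0.125, -0.093 and 0.196 between AF and AFX, where different numbers gave -0.260 to 0.304. Between epiblast stages same-numbered deviations correlated at -0.048 to 0.102. With the number as a replicate block, fitted on AF and AFX only, 907 genes were called in AFX against AF (1175 on the same samples without the block, 1401 in the reported fit on all cultured samples). With the embryo number as a block, 1 member and 421 genes were called in E5.5 against E5.0, 0 members and 707 genes in E6.0 against E5.5, and 4 members and 2251 genes in E6.0 against E5.0 (5 and 3100 reported), where Mycn was at 0.37 (edgeR adjusted p = 0.0523). In the block fit Ccne1 was at 0.010 and Ccne2 at 0.060 in AFX against AF, and Myc at -0.12 in E5.5 against E5.0. Mycn lost its call there (0.33, edgeR adjusted p = 0.151), and Ccnd3 lost its call in E6.0 against E5.5 (-0.58, adjusted p = 0.0532).

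Other uncalled differences near 0 changed sign. With FS line 1 alone, Ccne1 was at 0.031 against AF and 0.10 against AFX, and Ccne2 at 0.16 against AF, 0.21 against AFX and 0.22 against E5.5. With FS line 2 alone Ccnd3 was at -0.10 against AFX. Cdkn1b in AF against E6.0 was at 0.015 with size factors, 0.015 by the Wald test and 0.0010 with only the groups compared. Between FS lines Cdkn1b was at 0.0059, 0.0070 and 0.0091 in the same order, and at 0.013 with no filter.

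Leaving out 1 sample at a time gave 732 to 1129 genes called in AFX against AF, 371 to 1260 in E5.5 against E5.0, 1905 to 3362 in E6.0 against E5.0, 238 to 372 in E6.0 against E5.5, 820 to 1485 in FS against AFX and 316 to 478 between FS lines. Members called ranged from 4 to 7 in AFX against E6.0 (3940 to 4570 of all genes), 0 to 2 in E5.5 against E5.0, 0 to 1 in E6.0 against E5.5 and 1 to 4 in FS against AFX. Log2 differences that crossed 0 in this way, none of them called, ran as follows. In FS against AF, Ccne1 ran from -0.41 to 0.10 and Ccne2 from -0.61 to 0.085. In FS against AFX, Ccnd3 ran from -0.11 to 0.081 and Ccne1 from -0.13 to 0.0095. In AFX against AF, Ccnd1 ran from -0.29 to 0.35, Ccne1 from -0.37 to 0.14, Ccne2 from -0.37 to 0.32 and Myc from -0.53 to 0.021. Between FS lines, Ccnd1 ran from -0.30 to 0.070, Ccnd2 from -0.069 to 0.42, Cdkn1b from -0.16 to 0.25, Cdkn2b from -1.42 to 0.15 and Mycn from -0.36 to 0.023. Between stages, Ccnd2 ran from -0.42 to 0.65, Ccne1 from -0.15 to 0.070 and Mycn from -0.042 to 0.17 in E6.0 against E5.5, Ccne2 from -0.37 to 0.073 in E6.0 against E5.0, and Myc from -0.14 to 0.33 in E5.5 against E5.0. Against the epiblast, Ccne2 ran from -0.47 to 0.23 and Cdkn1b from -0.23 to 0.12 in AF against E6.0, and Ccnd3 from -0.028 to 0.058 in culture against epiblast. All 58 pooled count ratios of Cdkn2a and Cdkn2b that could be recomputed without 1 library, an alternative added after seeing the data, lay within the counting interval of the full ratio, and without E6.0 embryo 3 those of Cdkn2b to E6.0 had no value. Of 49 shares per length, 31 moved by more than 1 SD with the principal transcript length, which was chosen after seeing the data. At these depths the counts of Cdkn2b outside AF, and of Cdkn2a outside AF and E5.0, were at or near the limit of detection.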

Other observations

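A list of 10 genes of ubiquitin ligases and related factors was counted between culture and epiblast. In culture 2 were higher (Fbxo4 and Fbxw7) and 6 lower, where 33.9% of all genes were higher and 27.9% lower. Their median was -0.56 log2 units against 0.09 over all genes. The smallest adjusted p belonged to Skp1a, a subunit of some of these ligases, lower in culture by -0.81 (SE 0.06, edgeR adjusted p = 7.20e-11), and Usp28, a deubiquitinase of MYC, lower by -1.11 (SE 0.11, adjusted p = 2.00e-08). Skp2, which targets p27 for degradation, was lower in FS than in AFX by -0.76 (SE 0.15, edgeR adjusted p = 0.00606), 1 of 2 of these 10 genes that passed there (the other, Fbxo4, was also lower), beside 8.70% of all genes. Among cultured groups Usp28 was higher in FS than in AF by 0.83 (SE 0.20, edgeR adjusted p = 0.00847), and Fbxo4 was lower there by -1.03 (SE 0.32, adjusted p = 0.0322). The other 8 of these 10 genes did not pass, where 19.5% of all genes passed. Among 6 regulators of the Cdkn2a and Cdkn2b locus and its p53 axis, Ezh2 was higher in FS than in AF by 0.36 (SE 0.11, adjusted p = 0.0269) and Cbx7 higher in AFX than in AF by 0.75 (SE 0.17, adjusted p = 0.0143), both Polycomb genes. Each was the 1 of 6 that passed in its comparison, where 19.5% and 8.73% of all genes did. Cbx7 did not pass in FS against AF and was lower in FS than in AFX by -0.55 (SE 0.15, edgeR adjusted p = 0.0286). It was again the 1 of 6 that passed there, beside 8.70% of all genes. Bmi1, another Polycomb gene, fell from E5.0 to E5.5 by 1.56 (SE 0.26, adjusted p = 0.00408), the 1 of 6 that passed there, beside 6.82% of all genes. Of 10 genes of S, G2 and M phase, 2 were higher and 6 lower in culture than in epiblast, where 33.9% of all genes were higher and 27.9% lower. Their median was -0.30 against 0.09 over all genes. Between FS and AF 2 of 10 were higher in FS (Top2a and Bub1) and 8 did not pass. There 19.5% of all genes passed, and 1422 of 16052 were higher in FS. From E5.0 to E6.0 3 of 10 passed and 7 did not, near the 21.8% of all genes that passed: Mki67 rose by 0.46 (SE 0.09, edgeR adjusted p = 0.00177) while Ccnf fell by 0.75 (SE 0.10, adjusted p = 0.000163) and Cdk1 fell by 0.67 (SE 0.11, adjusted p = 0.000766).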
